A study of Gallus gallus with 16 samples.

Results

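The genes described here are those whose symbols belong to families named for DNA replication and cell division: MCM, ORC, RRM, CDC, CDK, CENP, KIF, BUB, AURK, PLK, NCAP, the polymerases POLA, POLD and POLE, SMC and the cyclins (CCN), without the CDC42 genes. Symbols were taken from the study's own table of genes that it called different between the lines, so the members were chosen by the HG against LG contrast in these same birds. The part of that table used here held 26 such symbols. Of these, 24 had a row among the 17854 loci of the count table, and all 24 reached the required estimated count of 10 in the higher line. SMC2 and BUB1B had no row and were not analysed here. The member nearest to the minimum was KIF1A, with 18.1 in HG, and no matching gene lay below it.

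Abdominal fat was taken at 7 wk from 4 high-growth (HG) and 4 low-growth (LG) cockerels, with RNA-Seq of every bird in 2 lanes. The lines come from a single meat-type population (Bresse-Pile) selected in opposite directions on body weight. Both were vaccinated against Marek's disease at hatching, were otherwise untreated, and were fed. They differed in early rearing, since the lines were kept apart at first and LG chicks received crushed pellets. Line, body size, fatness and early rearing cannot be told apart in this design. The labels conflict on the line, because the characteristics field says HG for every sample, and the line was taken from the titles.

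Cells copy their DNA once per division. Origins are marked by the origin recognition complex (ORC), the MCM helicase is loaded there, and polymerases then use deoxyribonucleotides supplied by ribonucleotide reductase. Condensins compact the copied chromosomes, the spindle checkpoint holds the cell until they are attached, and mitotic kinesins complete cytokinesis. In fat, lipid-filled adipocytes rarely divide, and most dividing cells are progenitors, endothelial cells and leukocytes.

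Each line has 1 estimated count per gene over its 4 birds, as the authors deposited it, with a variance from the authors' model. Single birds have no value of their own here, so neither spread between birds nor overlap of the lines could be examined. The column totals were 4421254 for HG and 3365950 for LG. These totals are far below the mapped reads that the paper reports for each bird, so they do not give the sequencing depth. Counts were not divided by length, so levels are compared between lines and not between genes. Ratios are log2 HG/LG with a pseudocount of 1, and 95% intervals come from the deposited variances. The median log2 ratio of the 10484 loci tested, taken without the pseudocount, was 0.26, so a gene with equal counts lies below the typical locus. Percentiles among all loci and the z test also used ratios without the pseudocount. In bulk tissue, fewer cells of a type and less RNA per cell cannot be told apart.

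The shared family names covered genes of unlike work. By the known roles of their products, 6 of the 24 were placed in DNA replication, 6 in mitosis and 4 in control of the cell cycle. The other 8 are known for other functions, chiefly transport along microtubules. These classes were drawn up by hand from general knowledge, with earlier results of these data known. In the pathway lists used below, the regulators CCNG1, PLK2 and CDC14B stand under cell cycle arrest, and CCND1 under G1 control. The label of cell division and DNA replication therefore holds for at most 16 of the 24 members, with the 4 regulators included.

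Of the 12 genes of replication and mitosis, 11 had lower counts in HG than in LG. The exception was the origin subunit ORC5L. Their median log2 ratio was -0.41, against 0.26 over all loci tested, and 11 of the 12 ratios were within the lowest 20% of all loci. All 4 regulators had higher counts in HG, with a median ratio of 0.90. Among the 8 genes of other functions, 5 had higher and 3 had lower counts in HG. Since a gene entered only if the study had called it, places far from the median of all loci were favoured. These directions and places describe the members and are not tested.

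**Figure D1:**
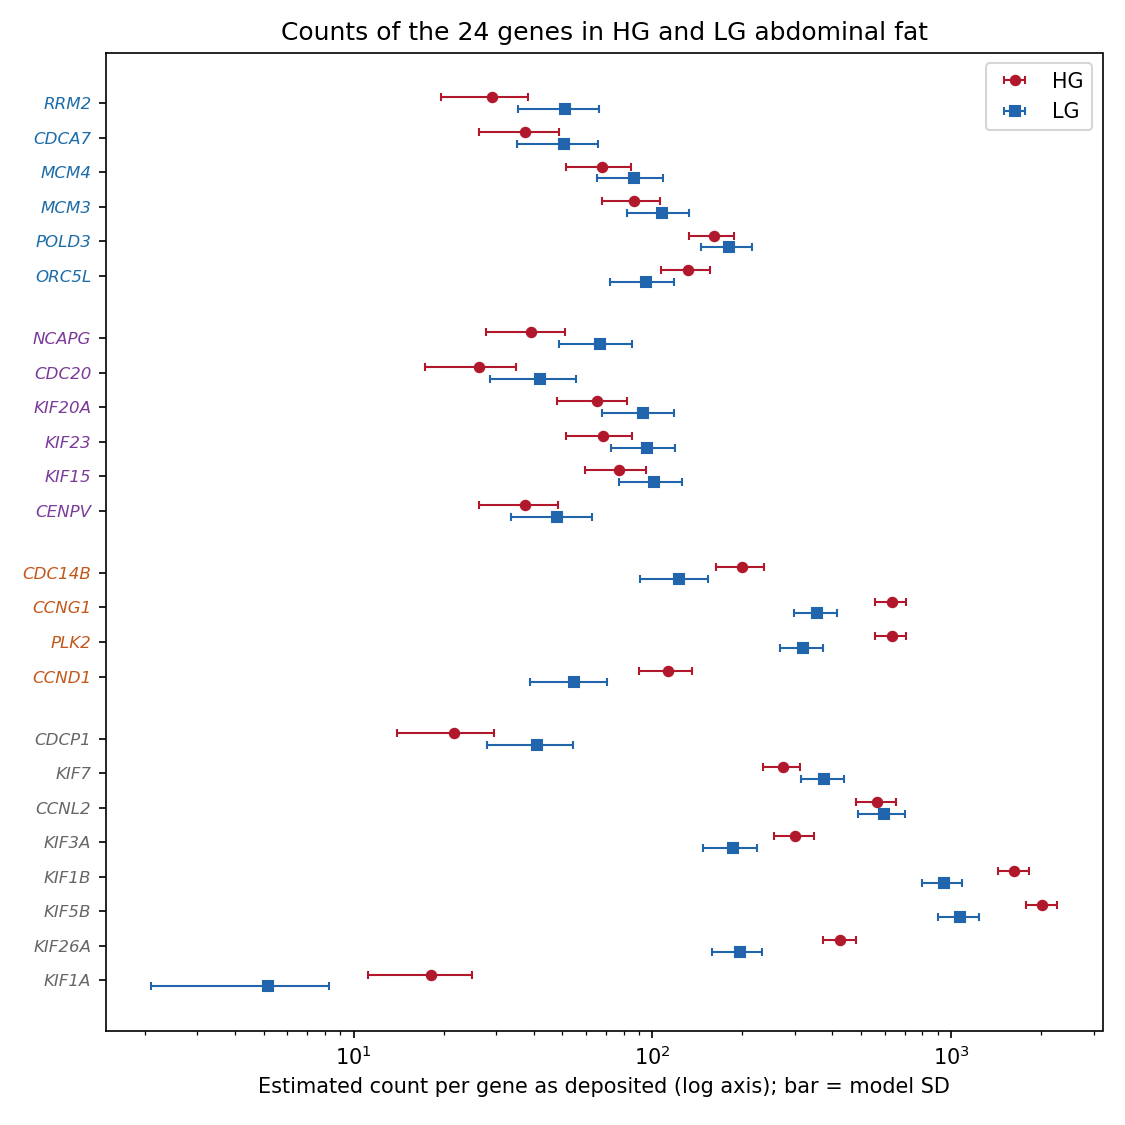
Estimated counts of the 24 genes (log axis) in HG (red circles) and LG (blue squares), 1 value per line over 4 birds, with bars of 1 standard deviation from the authors' model. In DNA replication (blue names) and mitosis (purple names) the HG point lies left of the LG point except for ORC5L, and for the 4 regulators (orange names) it lies right of it. Grey names mark genes of other functions.

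In DNA replication, the factors that license origins before S phase had small differences. MCM3 (ENSGALG00000016676), a subunit of the hexameric replicative helicase, had an estimated count of 86.8 in HG against 108 in LG. MCM4 (ENSGALG00000012915), another subunit of that hexamer, had 68.0 in HG and 86.8 in LG. Both helicase subunits were thus lower in HG by about the same proportion. The log2 ratio of MCM3 was -0.31 (95% interval -1.21 to 0.59), and that of MCM4 was -0.35 (95% interval -1.33 to 0.63). ORC5L (ENSGALG00000008175), which RefSeq now names ORC5 and which encodes a subunit of the origin recognition complex, went the other way. Its count was 131 in HG against 95.3 in LG, for a log2 ratio of 0.46 (95% interval -0.40 to 1.31). Relative to the median locus this was an excess of 0.19, so ORC5L lay close to the typical gene.

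DNA synthesis was represented by a polymerase subunit and by the enzyme that supplies its substrates. POLD3 (ENSGALG00000017307), an accessory subunit of DNA polymerase delta, had 160.4 in HG and 180.0 in LG. This was the smallest LG excess of the replication genes, with a log2 ratio of -0.17 (95% interval -0.89 to 0.56). RRM2 (ENSGALG00000016442), the small subunit of ribonucleotide reductase, whose mRNA is made mainly in S phase, had 28.9 in HG and 50.9 in LG. It had the largest LG excess of the replication genes, with a log2 ratio of -0.79 (95% interval -2.01 to 0.42), equal to a count 1.73 times as high in LG. CDCA7 (ENSGALG00000010829), known in human cells as a partner of the chromatin remodeller HELLS, had 37.5 in HG and 50.6 in LG. Its log2 ratio was -0.42 (95% interval -1.60 to 0.75). CDCA7 was classed here by a role in the chromatin of S phase, not in DNA synthesis itself. All 6 replication genes had intervals that included 0 and the median of their class, -0.33, so no gene of the class could be set apart from the others at this precision.

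The genes of mitosis all had lower counts in HG, with log2 ratios between -0.76 and -0.36. NCAPG (ENSGALG00000014425), a subunit of condensin I, had the largest difference, with 39.3 in HG and 67.0 in LG. Its log2 ratio was -0.76 (95% interval -1.86 to 0.35). CDC20 (ENSGALG00000009971) activates the anaphase-promoting complex and is held in check by the spindle checkpoint. Its count was 26.2 in HG against 42.1 in LG, for a log2 ratio of -0.66 (95% interval -1.94 to 0.61). CENPV (ENSGALG00000004503), known in human cells as a protein of centromeres and of the spindle midzone, had 37.3 in HG and 48.1 in LG, the smallest difference of the class at -0.36 (95% interval -1.53 to 0.81).

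The mitotic kinesins, motors that build the spindle and divide the cell, were close to each other. KIF20A (ENSGALG00000003231), a central spindle kinesin needed for cytokinesis, had 65.1 in HG and 92.8 in LG. KIF23 (ENSGALG00000008095), the motor of the centralspindlin complex, had 68.3 in HG and 96.0 in LG. Their log2 ratios were -0.50 (95% interval -1.56 to 0.54) for KIF20A and -0.49 (95% interval -1.45 to 0.48) for KIF23. KIF15 (ENSGALG00000011901), which works on the spindle beside KIF11, had 77.2 in HG against 101 in LG, for a log2 ratio of -0.39 (95% interval -1.31 to 0.54). All 6 intervals of the mitotic genes included 0. Counts were low here, and the relative standard deviation of these genes ran between 23.0% and 33.8% in HG and between 23.6% and 32.0% in LG, against medians of 20.2% in HG and 24.6% in LG over all loci tested.

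Summed over the class, the counts had the same direction, with the low counts of single genes pooled. The 6 mitotic genes together had 313 in HG and 447 in LG, or 70.9 CPM in HG and 133 CPM in LG (counts scaled to the column total). The 6 replication genes together had 513 in HG and 571 in LG, or 116 CPM in HG and 169.7 CPM in LG. As deposited, the log2 ratio of the sums was -0.51 for mitosis and -0.16 for replication. By column totals it was -0.91 for mitosis and -0.55 for replication. The wider gap in CPM comes only from the column totals, which do not give the sequencing depth. These sums weigh genes by their counts, and POLD3 and ORC5L make up much of the replication sum.

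The 4 regulators were on the other side. CCND1 (ENSGALG00000007555), cyclin D1, which pairs with CDK4 and CDK6 in G1 and links growth signals to entry into the cycle, had 113 in HG and 54.8 in LG. Its log2 ratio was 1.03 (95% interval 0.05 to 2.00). PLK2 (ENSGALG00000014725), a polo-like kinase that in mammals is an early response gene and a target of p53, had 631 in HG against 319 in LG, for a log2 ratio of 0.98 (95% interval 0.41 to 1.55). CCNG1 (ENSGALG00000001718), cyclin G1, another target of p53 in mammals, had 631 in HG and 356 in LG. Its log2 ratio was 0.82 (95% interval 0.25 to 1.39). CDC14B (ENSGALG00000012627), a dual-specificity phosphatase, had 199.9 in HG against 122 in LG, for a log2 ratio of 0.70 (95% interval -0.18 to 1.59). The ratios of all 4 lay at or above percentile 86.2 of all loci, that of CDC14B being the lowest. Places far from the median are favoured by the choice of members from genes called in this contrast. CDC14B was the only regulator whose interval included 0 with the deposited counts. Relative to the median locus the intervals of CCNG1 (-0.01 to 1.13) and CCND1 (-0.21 to 1.74) included 0 too, and that of PLK2 lay above it (0.15 to 1.29).

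**Figure D2:**
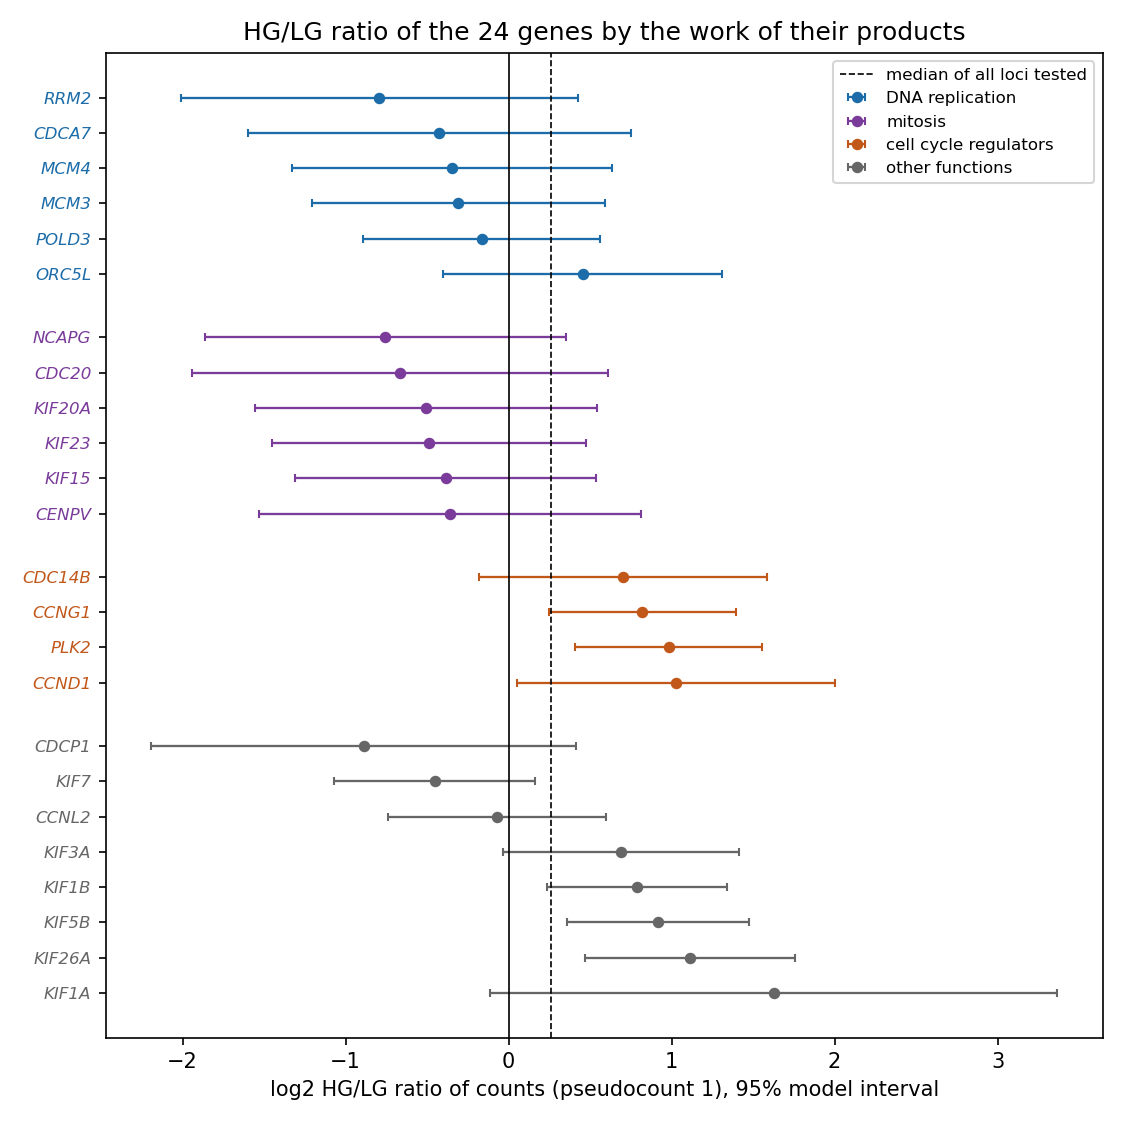
Log2 HG/LG ratio of each gene (points) with its 95% interval from the deposited variances (bars), coloured by the work of the product. The solid line is 0 and the dashed line is 0.26, the median of all loci tested. Intervals of all 12 replication and mitosis genes include 0, while those of PLK2, CCNG1, CCND1, KIF1B, KIF5B and KIF26A lie above it.

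Kinesins made up 9 of the 24 members and were split by their work. The 3 mitotic kinesins had lower counts in HG, and 5 of the 6 kinesins of transport and signalling had higher counts. KIF5B (ENSGALG00000007215), the conventional kinesin heavy chain that carries organelles and vesicles, had 2017 in HG and 1069 in LG. Its log2 ratio was 0.92 (95% interval 0.36 to 1.47). KIF1B (ENSGALG00000002726), which carries mitochondria and vesicles, had 1626 in HG against 942 in LG, for a log2 ratio of 0.79 (95% interval 0.24 to 1.34). KIF26A (ENSGALG00000011581), an atypical kinesin that in mice acts in signalling of enteric neurons, had 425 in HG against 196 in LG, for a log2 ratio of 1.11 (95% interval 0.47 to 1.76). These 3 genes had intervals above 0. Relative to the median locus those of KIF5B (0.10 to 1.21) and KIF26A (0.21 to 1.495) did so, while that of KIF1B (-0.03 to 1.08) included 0.

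KIF3A (ENSGALG00000006860), a motor subunit of intraflagellar transport that is needed to build cilia, had 300.4 in HG against 186 in LG, for a log2 ratio of 0.69 (95% interval -0.03 to 1.41). KIF7 (ENSGALG00000006611), a kinesin of Hedgehog signalling at the tip of the cilium, had 274 in HG against 375 in LG, for a log2 ratio of -0.45 (95% interval -1.07 to 0.16). The ciliary kinesins thus had ratios of opposite sign, and both intervals included 0. Relative to the median locus the interval of KIF7 lay below 0, at -1.33 to -0.10. KIF1A (ENSGALG00000006221), a motor of axons, had 18.1 in HG and 5.18 in LG. It had the largest ratio of the members, 1.63, and the widest interval (-0.11 to 3.37), and its LG count had a relative standard deviation of 59.4%. With a pseudocount of 10 its ratio was 0.89.

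The remaining members were a cyclin of RNA processing and a surface protein. CCNL2 (ENSGALG00000001551), which couples CDKs to splicing, had 565 in HG against 594 in LG, for a log2 ratio of -0.07 (95% interval -0.74 to 0.60). The table that gives this symbol describes the protein as cyclin L1, and the RefSeq accession beside it belongs to CCNL2. The replicate part of the model accounted for 60.9% of the variance of CCNL2 in HG, the lowest share among the members. CDCP1 (ENSGALG00000011882), a membrane glycoprotein phosphorylated by Src family kinases and not a cell cycle protein, had 21.8 in HG and 41.2 in LG. Its log2 ratio of -0.89 (95% interval -2.19 to 0.41) was the lowest of all 24.

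To place the members among all loci, each log ratio was set against its standard error from the deposited variances in a two-sided z test, adjusted over the 10484 loci (Benjamini-Hochberg). To pass, a locus needed an adjusted p no higher than 0.05 and a fold no smaller than 1.2. With the deposited counts 3 of the 24 passed, while 2.93% of all loci did. These were PLK2, KIF5B and KIF26A, all with higher counts in HG, the direction in which 2.07% of all loci passed, against 0.858% in the other. None of the 12 replication and mitosis genes was among them. The study's own analysis had called all 24, so not passing here is not read as no difference. KIF5B did not pass once loci under the count minimum were included. After ratios were centred on their median none of the 24 passed, against 2.18% of all loci (0.992% higher and 1.19% lower in HG). The members had been called by the study in these birds, so nothing is read from these counts. With the deposited variance taken as that of 1 library and so divided by 4 for the mean of a line, 13 of the 24 passed, beside 27.1% of all loci. Of these, 9 were higher in HG, as were 22.2% of all loci, and RRM2, NCAPG, KIF7 and CDCP1 were lower in HG, as were 4.87% of all loci.

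**Figure D3:**
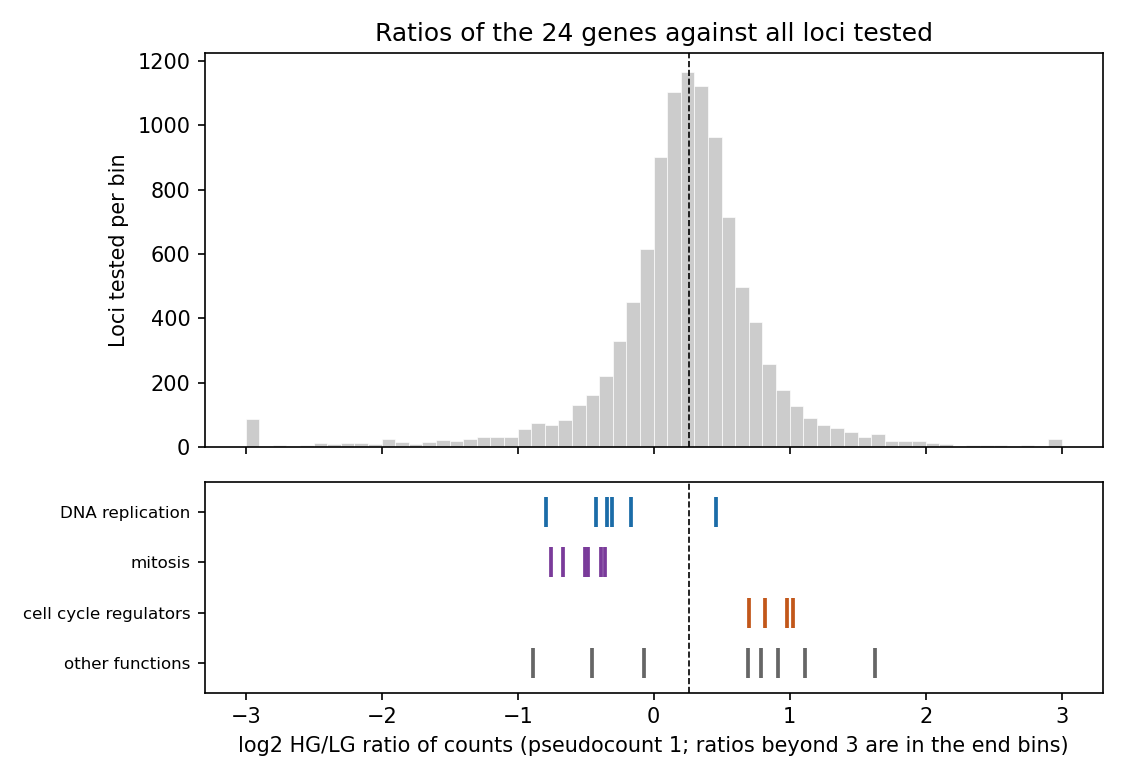
Distribution of the log2 HG/LG ratio over the 10484 loci tested (grey bars, number of loci per bin of 0.1) above the ratios of the 24 genes (ticks) by class. The dashed line is the median, 0.26. The 6 mitotic genes lie between -0.76 and -0.36 on the lower flank, and the 4 regulators between 0.70 and 1.03 on the upper flank.

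Each other scaling lowered every ratio by a constant, so only the 10 ratios above 0 could change sign, and all 10 were above 0 under each. Centring on the median lowered the median of the replication and mitosis genes to -0.67, and division by the column totals lowered it to -0.80. The regulators kept a positive median of 0.64 after centring and 0.51 by column totals. ORC5L remained above 0 under each scaling, by 0.06 at the least, with column totals. A ratio of sums within a line is free of that scaling. The summed count of the 12 replication and mitosis genes was 0.525 of that of the 4 regulators in HG and 1.19 of it in LG, a log2 difference of -1.19. That direction restates the ratios given above for members that the same contrast had chosen, so it is no separate evidence. PLK2 and CCNG1 make up most of the regulator sum in both lines.

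**Figure D4:**
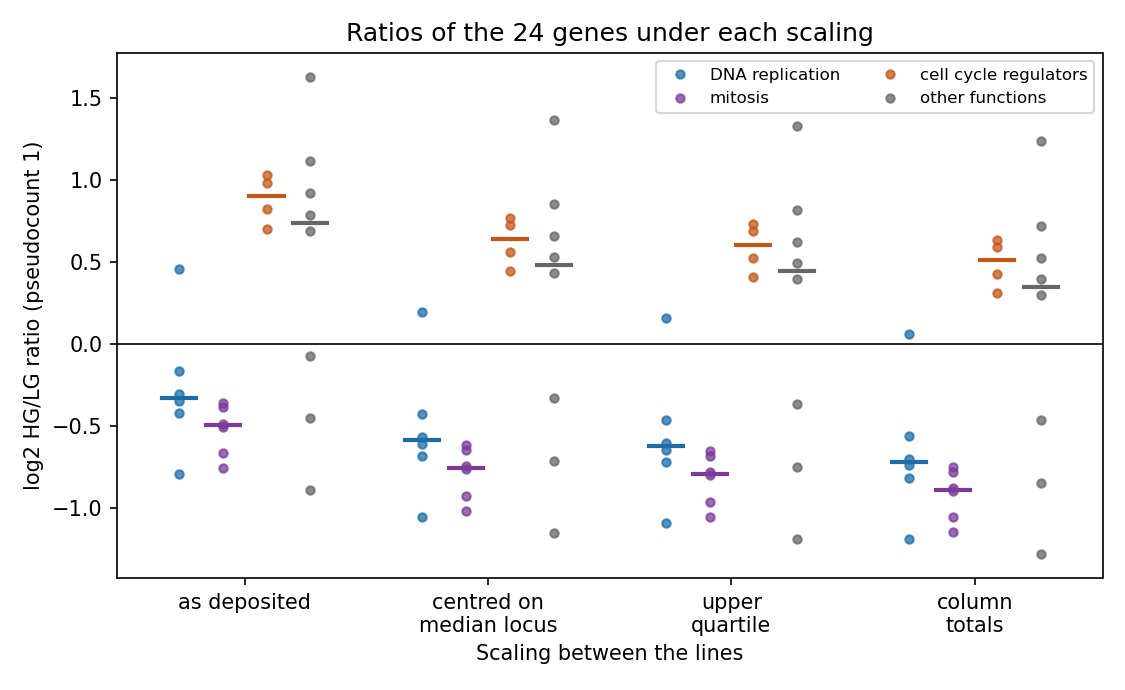
Log2 HG/LG ratio of each of the 24 genes (points) and the median of each class (horizontal lines) for counts as deposited, centred on the median locus, divided by the upper quartile and divided by column totals. Each scaling shifts all genes by the same amount. The medians of replication and mitosis lie below 0 and those of the regulators and of other functions above 0, and ORC5L is the replication gene above 0.

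Genes of the same pathways with other names were looked up in lists of replication, mitosis, chromosome structure, G1 control, arrest, other kinesins and other cyclins. Of 291 listed symbols, 37 were in the symbol table and 29 had a row and were tested, 21 of them members. A gene had a symbol only if the study had called it, so nothing is read from how many passed. Of the 29, 4 passed with the deposited counts, all higher in HG, beside 2.93% of all loci, and none passed after centring, beside 2.18%. By list, none passed among 7 of replication (median log2 ratio -0.31), 6 of mitosis (-0.44), 2 of chromosome structure, 1 of G1 control and 1 of other cyclins. In the arrest list 2 of 5 passed, PLK2 and SESN3, and in the list of other kinesins 2 of 7 passed, KIF5B and KIF26A. The only non-member that passed was SESN3, a stress-induced sestrin, with 302 in HG and 122 in LG (log2 ratio 1.30, 95% interval 0.57 to 2.03). The 7 others, named after their values were seen, did not pass. NUSAP1, a spindle protein, had 55.9 in HG and 72.0 in LG, and INCENP, the scaffold of the chromosomal passenger complex, had 158 in HG and 176 in LG. RPA3, of the single-strand binding complex, had 11.6 in HG and 13.2 in LG. These 3 had lower counts in HG, with log2 ratios of -0.36 for NUSAP1, -0.16 for INCENP and -0.18 for RPA3. Their 95% intervals all included 0. The same contrast had chosen them too, so they are no separate evidence on the members. CDT1, which loads the MCM helicase, had 32.4 in HG and 27.8 in LG, and PDS5B, a cohesin regulator, had 734 in HG and 529 in LG. BTG1, an antiproliferative factor, had 3004 in HG and 3618 in LG. KLC4, a light chain of conventional kinesin, had 727 in HG against 419.6 in LG, for a log2 ratio of 0.79, beside 0.92 for the heavy chain KIF5B.

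Markers of the cell types of fat were read beside these genes, with the marker of highest count named for each list. A marker needed a symbol from the study's table of called genes, and the LG end of that table was not used here, so each list is seen only in part. Of the leukocyte markers, 6 of 16 had a row, and 5 of the 6 had lower counts in HG, with a median log2 ratio of -0.27. The exception was CSF1R, the macrophage growth factor receptor, with 2318 in HG and 1401 in LG. The summed leukocyte counts were 4945 in HG and 4913 in LG. Endothelial markers with a row (3 of 10) all had higher counts in HG, with sums of 5307 in HG and 3079 in LG. CDH5, the cadherin of endothelial junctions, had 4494 in HG and 2611 in LG. Of the 7 progenitor and fibroblast markers with a row, out of 12, 6 had higher counts in HG. The exception was DPP4, with 190 in HG and 326 in LG (log2 ratio -0.78, 95% interval -1.47 to -0.09). The sums of the 7 were 46204 in HG and 20489.9 in LG. COL6A3, a chain of collagen VI, had 33332 in HG and 12450.5 in LG and makes up most of both sums. No marker of these 3 lists that had a row was at 0.

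Of the adipocyte markers, 4 of 12 had a row, and the 3 that could be tested differed in direction. SCD, the stearoyl-CoA desaturase, had 26156 in HG against 162 in LG, for a log2 ratio of 7.33. PPARG, the master regulator of adipocyte formation, had 1774 in HG and 909.9 in LG. PNPLA2, the lipase that starts triglyceride breakdown, had 5366 in HG against 12187.5 in LG, for a log2 ratio of -1.18. DGAT2 was listed at 0 in both lines and could not be tested. The paper reports higher DGAT2 in HG by its own RNA-Seq analysis and by quantitative RT-PCR, so this entry is not read as absent expression. LPL and FASN had a symbol but no row, and the paper reports both as higher in HG. The directions seen here therefore cover only part of the list. The defining genes ADIPOQ, FABP4 and PLIN1 were not among the symbols used here. Of the hepatocyte list 1 of 12 had a row, SERPINC1, the gene of antithrombin, with 4.40 in HG and 64.7 in LG. The paper names ALB, FGA, FGB and FGG among its top RNA-Seq genes in LG. SERPINC1 is therefore not read for hepatocyte genes as a whole. Of the erythroid list 1 of 12 had a row, CA2, a carbonic anhydrase, with 230 in HG and 454 in LG. Of the skeletal muscle list 5 of 10 had a row, and the 3 that could be tested had higher counts in HG, with a median log2 ratio of 4.21. ACTA1, skeletal muscle actin, had the highest counts, with 1144 in HG and 526 in LG. ACTN2 had 67.6 in HG and 1.13 in LG, and TNNI2 had 23.7 in HG and 0.33 in LG. MYBPC1 had 83.8 in HG and 0 in LG and could not be tested. TNNC2 of that list was at 0 in both lines, although the paper names it among its top RNA-Seq genes in HG. With the deposited counts SCD, PPARG, PDGFRB and PI16 passed, all higher in HG, beside 2.07% of all loci in that direction. After centring SCD and PI16 passed higher in HG, beside 0.992% of all loci, and PNPLA2 and CA2 passed lower in HG, beside 1.19%. The part of these cell types in the counts of the members was not tested.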

How the data were processed

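RNA-Seq of abdominal fat from 4 HG and 4 LG cockerels was analysed. The authors trimmed reads (Btrim64), mapped them to Galgal4 (TopHat 1.3.3, Bowtie 0.12.7) and assembled transcripts (Cufflinks, cuffmerge). They deposited Cuffdiff 2.0.2 estimated counts, 1 per gene and line, not divided by length, with other columns holding the model variance in squared counts. Scaling between lines, and whether a variance is that of 1 library or of a mean, are not given in the sources used here. Intervals cover model error only, and would be too wide if the variance is that of 1 library. Printed ratios of genes had a pseudocount of 1. The z test, the median over all loci and the percentiles used ratios without it. The z test used loci with a count of 10 or more in the higher line, a count above 0 in both and status OK. It was tested on simulated data, where it missed most changes of 2-fold. The simulation gave all loci the same dispersion and gave the test the spread used to draw the counts. It could therefore neither check the deposited variances nor give the miss rate for the members. P-values of single genes are not printed.

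Symbols came from the first 1998 rows of the study's supplementary gene table, of which 1511 of 1993 identifiers had a row. Its rows run from the HG to the LG side and the rows at the LG end were not used here, so members with the largest LG excess may be missing. Its fold changes and p-values were not used. RefSeq (GRCg7b) names matched by protein accession for 9 members. Members, classes and lists were chosen with earlier results of these data known. The rule named every member, the listed genes that passed (up to 12 in each direction) and the marker of highest count in each list. PPARG, PNPLA2, DGAT2, DPP4, TNNC2, ACTN2, TNNI2, MYBPC1 and the listed genes that did not pass were named after their values were seen. Alternatives were scaling, count minimum, variance, fold minimum, status, pseudocount and class. Promoter motifs were not analysed here. Python 3.11.15, pandas 2.3.3, numpy 2.4.6, scipy 1.17.1 and matplotlib 3.10.9 were used.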

Additional observations from a re-analysis of the deposited data

How the results depend on the processing

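The number of members that passed was 3, and 4 for the pathway lists. Both were 0 after centring on the median, by column totals, by the upper quartile (a scaling added after seeing the data) and with Poisson variance added. They were 2 and 3 with no count minimum, where KIF5B no longer passed, beside 283 of 13214 loci. With a fold minimum of 2 they were 1 and 2, beside 279 of 10484 loci. Poisson variance left 226 of 10484 loci. The deposited variances may already include Poisson noise, so this setting may count it again, and nothing is read from it. With the variance divided by 4 they were 13 and 15, and 2841 loci passed in place of 307. By column totals the median ratio of the regulators was 0.51 in place of 0.90, and that of the genes of other functions 0.34 in place of 0.74. Over all loci the share higher in HG moved from 217 of 307 as deposited to 104 of 229 centred, 97 of 233 by upper quartile and 73 of 236 by column totals. Of 120 ratios of single members under other scalings and pseudocounts, 13 moved by more than their standard error. Symbols from the reference table could not be added, since it carried no Ensembl identifiers. No paired analysis was possible because each line has 1 pooled column, and birds could not be left out. Precision depended on the variance used as well as on the counts, since dividing the variance by 4 moved the members that passed from 3 to 13. Low counts were therefore not the only limit, and 20 of the 24 members reached 50 in the higher line.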
